A study of Mus musculus with 12 samples.

Results

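Conventional dendritic cells of the spleen form 2 branches, and the data described here compare these branches, cDC1 and cDC2, in mice that lack the receptor tyrosine kinase Flt3. The comparison holds 4 of the 12 arrays of the series, chosen by their sample titles and not by measured values: 2 arrays of Flt3 KO cDC1 and 2 of Flt3 KO cDC2. All 4 carried RNA of mature cells sorted from the spleens of Flt3 KO mice at steady state, after the organ had been digested with Collagenase B and DNAse 1. The other groups, used only to set the Flt3 KO difference beside its counterpart, were the same branches from WT mice and from Flt3L KO mice, which lack the ligand, with 2 arrays each. Total RNA was labelled with biotin and hybridised to GeneChip arrays that hold 1 colour. The arrays of a group are described as biological replicates. Not given in the sources used here are the allele of the Flt3 KO, the strain and age of the mice, the gates of the sort and the number of mice behind an array. The spread that a p-value weighs is therefore that between arrays, which may be partly technical.

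The cDC1 branch depends on the transcription factors IRF8 and BATF3 and is known for taking up dead cells and presenting their antigens on MHC class I to CD8 T cells. The cDC2 branch, marked by SIRPA and CD11b and dependent on IRF4, is known for presenting antigen on MHC class II to CD4 T cells, and part of it needs Notch2 signals and carries ESAM. FLT3 ligand, acting through the FLT3 receptor, drives the expansion of dendritic cell progenitors and supports both branches in the spleen.

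Each array gives 1 linear intensity for a probe set, and differences are of log2 intensity with the standard error (SE) from limma, a linear model fitted over all 12 arrays. Genes with a Benjamini-Hochberg adjusted p under 0.05 were called. A gene was represented by its brightest probe set, and 14953 genes were tested after the dimmest 25% had been left out. The median intensity of the 4 Flt3 KO arrays was 59.0 to 60.4 and their lower quartile 23.3 to 23.7. A mean under 23.3, the lowest quartile of any array, is called dim here, and a fold against a dim group is imprecise and may be understated. The number of arrays limits the precision, and the median SE of a difference was 0.09. Replicate 1 of WT cDC1 had a lower quartile of 25.7, above those of the other 11 arrays (23.3 to 24.3). It enters the comparisons with WT and the pooled spread. Like every array, it also enters the choice of probe sets and the filter on dim genes.

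Flt3 itself was measured first. Its intensity was 357 and 370.4 in the Flt3 KO cDC1 arrays and 351 and 371 in the Flt3 KO cDC2 arrays, against 2333 and 2265 in WT cDC1 and 1817 and 1742 in WT cDC2. All 4 Flt3 KO arrays lay below all 4 WT arrays. The log2 difference from WT was -2.66 in cDC1 (adjusted p = 5.26e-10) and -2.30 in cDC2 (adjusted p = 3.17e-09), so the arrays went with their labelled genotype; the deleted part of the gene is not given, so how the probes lie to it was not tested. Flt3 was 1 of 12 genes called between Flt3 KO and WT in cDC1 (0.0803% of tested genes) and 1 of 16 in cDC2 (0.107%). Between the branches of Flt3 KO mice the remaining Flt3 signal was level, with a difference of 0.01 ± 0.07 (SE; adjusted p = 0.932) and overlapping arrays. Flt3l, which encodes the ligand, read 124 and 124 in cDC1 and 138 and 131 in cDC2, a difference of -0.12 ± 0.08 (SE; adjusted p = 0.255).

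Between Flt3 KO cDC1 and Flt3 KO cDC2, 5305 genes were called, or 35.5% of those tested. Of these, 2859 were higher in cDC1 (19.1%) and 2446 lower (16.4%). A difference of more than 2-fold was called for 420 genes in the upward direction (2.81%) and 495 in the downward direction (3.31%), and a difference of more than 8-fold for 31 and 41. The median difference over all tested genes was 0.00 and the median size 0.16, so most calls were of small differences and every count of a gene list below is to be read against 19.1% higher and 16.4% lower. The arrays of the 2 branches did not overlap for 9958 of the 14953 tested genes. A lack of overlap, given for single genes below, is therefore common and does not by itself set a gene apart. Each array held RNA of many sorted cells, so fewer cells with a transcript and less of it per cell cannot be told apart.

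**Figure D1:**
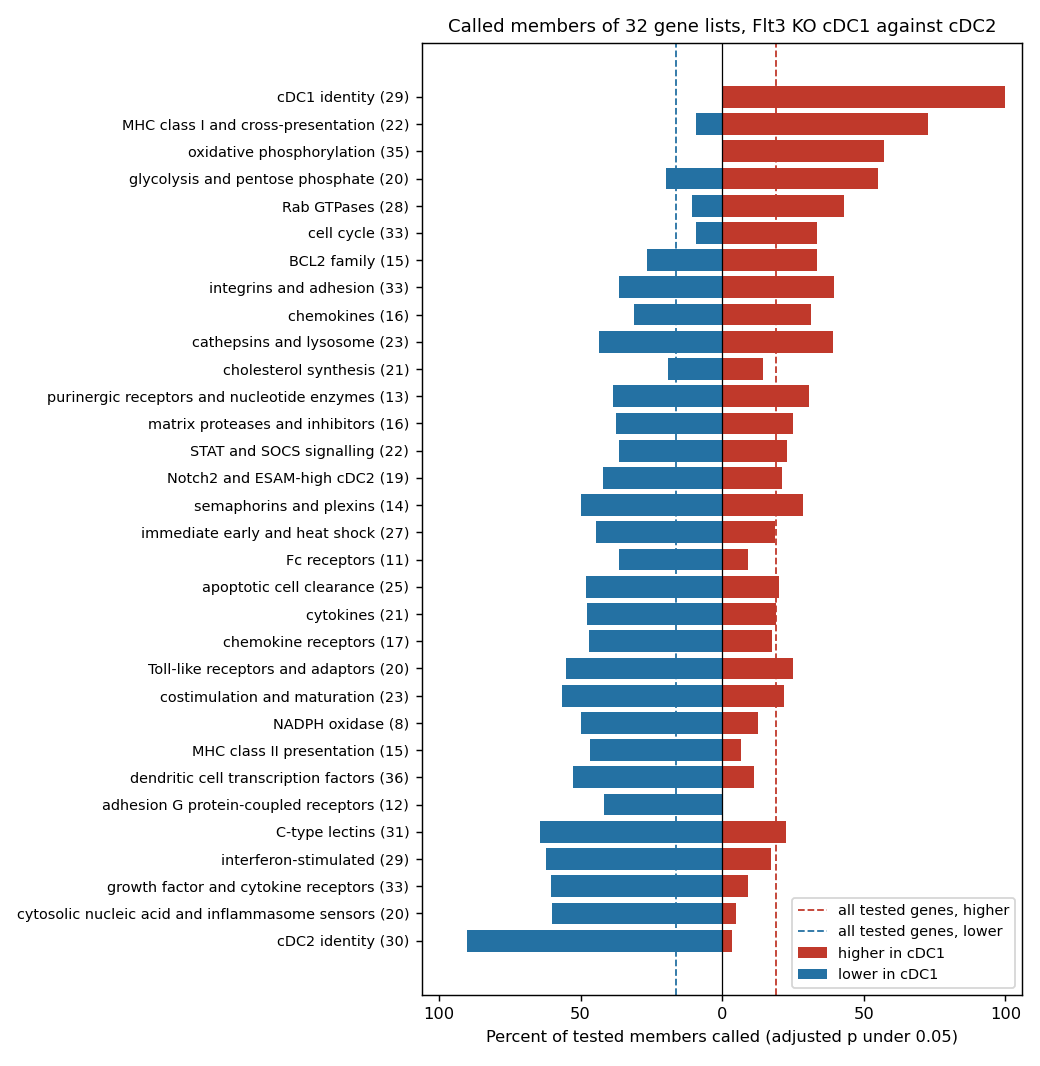
Share of the tested members of 32 lists of genes that were called higher (red, right) or lower (blue, left) in Flt3 KO cDC1 than in Flt3 KO cDC2, in percent, with the number of tested members in brackets. Dashed lines mark all tested genes, 19.1% higher and 16.4% lower. cDC1 identity genes reach 100% higher and cDC2 identity genes 90% lower, and MHC class I, oxidative phosphorylation and glycolysis genes lie on the higher side.

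The 29 tested genes of the cDC1 identity list were called higher in Flt3 KO cDC1, and 0 lower, with a median difference of 3.53. The list was drawn from knowledge of cDC1 and with these data known, so its direction is a check of the labels and not independent evidence. Xcr1, the receptor for the chemokine XCL1, read 3020.2 and 2885 in the cDC1 arrays and 56.3 and 63.1 in the cDC2 arrays. It was 49.5-fold higher in cDC1 (adjusted p = 1.75e-12), and the arrays of the branches did not overlap. Clec9a, a lectin that binds actin exposed by dead cells, read 3094 and 2852 against 206 and 255, a 13-fold difference (adjusted p = 1.37e-10). Its cDC2 values were well above the array medians, unlike those of Xcr1. Cd8a, the coreceptor chain that marks splenic cDC1 in mice, read 894 and 803 against 74 and 72.8, and was 11.5-fold higher. Itgae, which encodes CD103, was 8.8-fold higher, and the adhesion molecule Cadm1 11.1-fold. Naaa, a lysosomal amidase, was also among the higher genes. The smallest difference of the list was that of Wdfy4, needed for cross-presentation of cell-associated antigen: 7799 and 7195 against 4364 and 4321, or 1.73-fold (adjusted p = 3.69e-06). In these genes each cDC1 array stood above each cDC2 array.

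Beside Xcr1, the 12 genes most raised in Flt3 KO cDC1 held enzymes, receptors and a sensor of nucleic acid. P3h2, a collagen prolyl hydroxylase, read 2340.0 and 2382 against 32.4 and 30.8, the largest fold of all tested genes at 74.7 (adjusted p = 8.78e-12). Gpr141b, an orphan receptor, was 67.4-fold higher with values of 2879 and 2767 against 43.5 and 40.4. Ifi205, an interferon-inducible member of the PYHIN family of DNA sensors, was 54.9-fold higher with 2861 and 2722 against 48.7 and 53. For all 3 the cDC2 arrays read below the array median, and the cDC1 arrays far above it. Plpp1, a lipid phosphatase, was 40.1-fold higher, but its cDC2 values of 17.7 and 19.3 were dim. P2ry14, the receptor for UDP-glucose, was 27.3-fold higher and Tlr3, the endosomal receptor for double-stranded RNA, 26-fold. The list was completed by Mab21l3 (26.3-fold), the disulfide isomerase Pdia5 (21.1-fold), the endosomal GTPase Rab7b (20.9-fold), Hepacam2 (18.4-fold) and the lipid scavenger receptor Cd36 (17.3-fold). Cd36 read 1194 and 1160.0 in cDC1 and 72.9 and 63.2 in cDC2.

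Of the 30 tested genes of the cDC2 identity list, 27 were called lower in Flt3 KO cDC1, 1 was called higher and 2 were not called, with a median difference of -2.69. Without replicate 1 of Flt3 KO cDC2, 2 were called higher. This list, too, checks the labels. Sirpa, an inhibitory receptor for CD47, read 101 and 113 in the cDC1 arrays and 3695 and 3776 in the cDC2 arrays, and was 34.8-fold lower in cDC1 (adjusted p = 1.31e-12). Itgam, which encodes CD11b, read 51.5 and 58.3 against 678 and 569.8, or 11.3-fold lower. Csf1r, the receptor for M-CSF, read 105 and 107 against 1576 and 1465, or 14.4-fold lower. The cDC1 arrays lay below the cDC2 arrays for all 3. Cd4 was 10.8-fold lower, Cd209a, a relative of the lectin DC-SIGN, 6.87-fold, and Mgl2, a galactose-binding lectin, 4.46-fold. Esam, the adhesion molecule that marks the Notch2-dependent cDC2, read 63.1 and 68.1 against 145 and 155, a difference of 2.28-fold (adjusted p = 6.94e-07).

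Clec12a, an inhibitory lectin entered in the cDC2 list, went against its list. It read 1254 and 1216 in cDC1 and 457 and 446 in cDC2, 2.73-fold higher in cDC1 (adjusted p = 1.92e-07), with no overlap. The genes not called were Ccr2, a chemokine receptor of monocytes, with 204 and 165 against 155 and 119 (adjusted p = 0.0752), and Lyz2, the myeloid lysozyme, with 1166 and 1172 against 1297 and 1129 (adjusted p = 0.727). The arrays overlapped for Lyz2, while for Ccr2 both cDC1 arrays lay above both cDC2 arrays with a wide gap between replicates.

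The largest falls in cDC1 were led by Mmp12, the macrophage elastase, with 70.1 and 61.3 against 2334 and 2809, or 39.1-fold lower (adjusted p = 1.14e-09). Dscam, an adhesion molecule best known from neurons, read 30.3 and 27.2 against 869.5 and 1109 and was 34.2-fold lower. Tgm2, a transglutaminase, read 66.5 and 78.9 against 2545 and 2319 and was 33.5-fold lower. In each, the cDC1 arrays read near or below the array median and the cDC2 arrays many times above it. Tlr7 (33.4-fold), Clec4a4 (25.8-fold) and Clec4a1 (16.6-fold) were dim in cDC1. The adhesion receptors Adgre4 and Adgre1, the latter a macrophage surface marker, were 21.7- and 20.7-fold lower. Cybb, the catalytic subunit of the phagocyte NADPH oxidase, was 21-fold lower, Pxdc1 15.5-fold and the calcium-binding protein gene S100a4 15.4-fold.

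**Figure D2:**
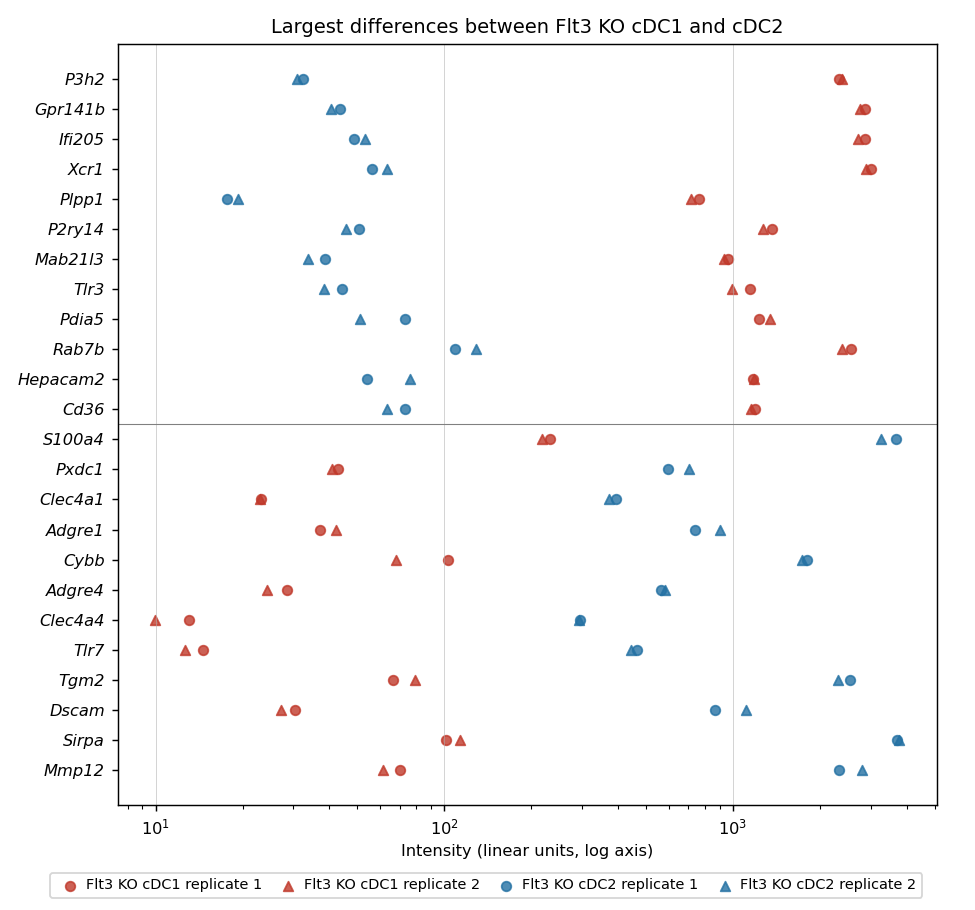
Intensity (linear units on a log axis) of the 12 genes most raised and the 12 most lowered in Flt3 KO cDC1, in each of the 4 arrays; red symbols are cDC1, blue symbols cDC2, circles replicate 1 and triangles replicate 2. Replicates lie close together. The 24 genes were chosen among those whose branches do not overlap, and run from P3h2 (74.7-fold higher) to Mmp12 (39.1-fold lower).

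Markers common to both branches were nearer to level. H2-Ab1, a chain of MHC class II, read 11583 and 10956 in cDC1 and 11681 and 11512 in cDC2 (-0.04 ± 0.07, SE; adjusted p = 0.72), and its invariant chain Cd74 differed by -0.08 ± 0.07 (SE; adjusted p = 0.489). Zbtb46, a transcription factor of conventional dendritic cells, read 234 and 244 against 275 and 294 (adjusted p = 0.141). Itgax, which encodes CD11c, was lower in cDC1, with 3623 and 3368 against 5445 and 5639, or 1.59-fold (adjusted p = 1.02e-05). Class II, Cd74 and Itgax were bright in both branches and Zbtb46 was less bright. The branch markers were split between the branches, Clec12a excepted, and so went with the labels of the 4 arrays. They were chosen with these data known and the gates of the sort are not given, so this is no independent evidence.

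**Figure D3:**
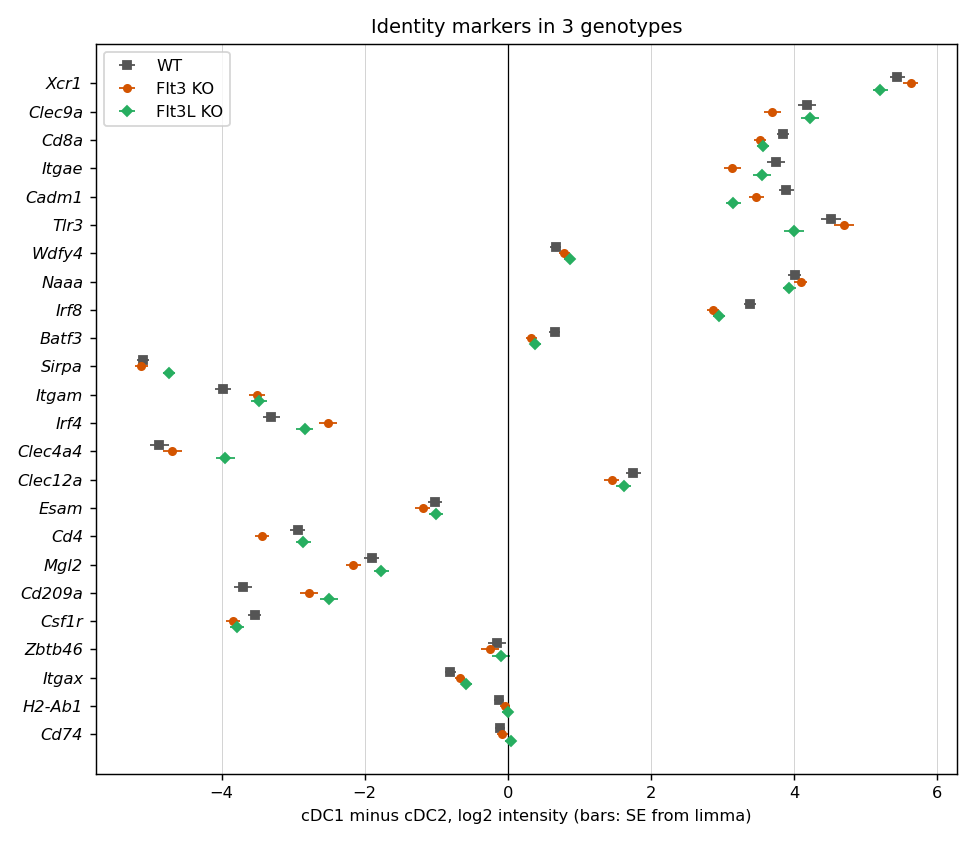
Difference between cDC1 and cDC2 in log2 intensity for 24 identity markers, from limma, in WT (grey squares), Flt3 KO (orange circles) and Flt3L KO (green diamonds); bars are the SE. In Flt3 KO, Xcr1 lies at 5.63 and Sirpa at -5.12, and Clec12a, listed as a cDC2 marker, lies above 0 in each genotype.

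The stretches of DNA just before the start of the marker genes were searched, since IRF8 and IRF4 bind with an ETS-family partner at a shared element and BATF3 binds with JUN proteins at AP-1 elements. Sequences are those of RefSeq on GRCm38.p6, and 15 of 24 markers had one. The motifs were the ETS-IRF core GGAANNGAA, the interferon response core GAAANNGAA and the AP-1 core TGANTCA, each on either strand; a pair of the first 2 may overlap. In the 250 bases before the start, 5 of the 15 markers held at least 1 of the 3 motifs (33.3%), against 18.5% of the 11808 tested genes with a promoter. Matches are shown for Cd8a and Itgax, the first higher and the second lower in Flt3 KO cDC1. They are also shown for Cd209a and Clec12a, both entered as cDC2 markers. Cd209a was lower in Flt3 KO cDC1, and Clec12a was higher, against its entry. The match is in capitals and the gene's own strand runs 5′ to 3′. Positions are those of the stretch printed, which is the match with 20 bases on either side. Cd8a (plus strand) held ETS-IRF matches within chr6:71373250-71373298 and chr6:71373272-71373320, Cd209a (minus strand) one within chr8:3749108-3749156. Clec12a (plus strand) held an AP-1 match within chr6:129350011-129350057 and Itgax (plus strand) one within chr7:128129474-128129520.
Cd8a, ETS-IRF, first match: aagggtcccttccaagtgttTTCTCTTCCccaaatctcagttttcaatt
Cd8a, ETS-IRF, second match: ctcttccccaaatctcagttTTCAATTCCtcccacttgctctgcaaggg
Cd209a, ETS-IRF: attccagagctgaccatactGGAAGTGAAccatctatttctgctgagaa
Clec12a, AP-1: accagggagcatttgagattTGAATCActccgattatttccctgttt
Itgax, AP-1: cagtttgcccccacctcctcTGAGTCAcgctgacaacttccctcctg
The fifth was Zbtb46, with an AP-1 match. Counting 300-base promoters, the ETS-IRF core was found in 6.09% of the 443 promoters of genes more than 2-fold higher in Flt3 KO cDC1, 7.31% of the 520 of genes more than 2-fold lower and 7.29% of the 14823 of all tested genes. The AP-1 core was found in 9.26%, 8.08% and 5.68%. A match is a run of letters and not a measured binding site.

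Transcription factors of dendritic cells were mostly lower in Flt3 KO cDC1: 4 of 36 tested were called higher and 19 lower, with a median difference of -0.25. Irf8, which specifies cDC1, read 3098 and 2867 in cDC1 and 405 and 409.5 in cDC2, 7.32-fold higher (adjusted p = 4.48e-11). Irf4, its counterpart in cDC2, read 143 and 169 against 841 and 939.6, 5.72-fold lower (adjusted p = 3.71e-09). Neither pair of groups overlapped. Batf3, needed for cDC1 development, differed far less than Irf8: 808 and 881 against 676 and 666, or 1.26-fold higher (adjusted p = 0.00428). Its call was lost without replicate 2 of Flt3 KO cDC1 (difference 0.27, adjusted p = 0.0563). Id2, an inhibitor of E proteins that supports cDC1, was 2.36-fold higher. Zeb2, which holds back the cDC1 programme, read 39.6 and 34.4 against 469.9 and 500.0, 13.1-fold lower (adjusted p = 5.01e-10). Prdm1, the repressor BLIMP1, was 5.58-fold lower, and Tbx21, which encodes T-bet, 3.97-fold lower. Klf4 and Relb, both used by cDC2, were 2.45- and 1.85-fold lower, and Tcf4, a plasmacytoid cell factor, 1.9-fold lower. Spi1 (PU.1) was 1.19-fold lower (adjusted p = 0.0144), whereas Nfil3, which acts upstream in cDC1 progenitors, was not called (-0.17 ± 0.07, SE; adjusted p = 0.0817).

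Among 19 tested genes of Notch signalling and the ESAM-high cDC2, 4 were called higher and 8 lower, with a median of -0.10. Notch2 itself was level, at 1395 and 1410.3 in cDC1 and 1448 and 1389.7 in cDC2 (adjusted p = 0.899). Notch4 was the receptor with the largest difference, 3.9-fold higher in cDC1 with 306 and 297 against 88 and 67.8. Rbpj, the DNA-binding partner of Notch, was 1.38-fold higher (adjusted p = 0.00045), while Dtx1, a Notch target, was 3.1-fold lower. The values thus went in both directions within the list.

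Receptors for growth factors and cytokines were lower in cDC1 for 20 of 33 tested genes and higher for 3, with a median of -0.45. Apart from Csf1r, the largest fall was that of Il21r, the IL-21 receptor, with 390.2 and 364 in cDC1 and 2424 and 2485 in cDC2, or 6.51-fold (adjusted p = 1.2e-10). Il1r2, the decoy receptor for IL-1, read 1611 and 1573 against 9098 and 9144, or 5.73-fold lower. Csf3r, the G-CSF receptor, was 4-fold lower and Il4ra 2.3-fold lower. In these genes each cDC2 array exceeded each cDC1 array. The GM-CSF receptor chains were closer: Csf2ra was 1.27-fold higher in cDC1 (adjusted p = 0.00233), and Csf2rb was not called (2620.0 and 2675 against 2331 and 2674; adjusted p = 0.646). Kit, the receptor for stem cell factor and a close relative of Flt3, read 3016 and 3002 against 3528 and 3957, or 1.24-fold lower (adjusted p = 0.00583). Without replicate 2 of Flt3 KO cDC2 its call was lost (difference -0.23, adjusted p = 0.0741). The higher genes were Csf2ra, Il15ra (2.74-fold), which presents IL-15 to lymphocytes, and Il1rap (2.44-fold), the shared chain of IL-1 family receptors.

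Downstream of these receptors, 5 of 22 tested STAT, JAK and SOCS genes were called higher and 8 lower. Stat4, which carries signals of IL-12 and interferon, read 291 and 315 against 1264 and 1545, 4.62-fold lower in cDC1 (adjusted p = 3.45e-09). Its arrays did not overlap. Stat3, through which FLT3 ligand is known to act on progenitors, was 1.33-fold lower (adjusted p = 0.000372), and Stat5b 1.58-fold lower. The phosphatase Ptpn6 was 1.86-fold lower. Tyk2, a JAK kinase, was 1.93-fold higher, the ubiquitin ligase Cblb 1.95-fold and the inhibitor Socs2 1.74-fold.

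Genes of MHC class I presentation were mostly higher in cDC1: 16 of 22 tested were called higher and 2 lower, with a median of 0.63. The peptide transporter subunits Tap1 and Tap2 were 1.74- and 2.37-fold higher. Tap2 read 1231 and 1325 in cDC1 and 529 and 552 in cDC2 (adjusted p = 3.07e-08). Tapbpl, an editor of bound peptides, was 2.46-fold higher, and the immunoproteasome subunits Psmb9 and Psmb8 2.02- and 1.92-fold. The proteasome activator Psme1 was 1.58-fold higher, the class I transactivator Nlrc5 1.68-fold and Rab43, a GTPase needed for cross-presentation, 1.59-fold. Tapbpl had the largest difference of these, far below those of Xcr1 or Sirpa. Tfeb, a lysosomal regulator known to hold back cross-presentation, was lower, with 111 and 137 against 238 and 228, or 1.89-fold (adjusted p = 2.41e-05). B2m, the light chain of class I, had 5519.6 and 5164 against 6242 and 6059.8, or 1.15-fold lower with an adjusted p of 0.0479. That call was lost when any 1 of the 4 arrays was left out (adjusted p from 0.0683 to 0.267).

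Of 15 tested MHC class II presentation genes, 1 was called higher and 7 lower, with a median of -0.10. The main chains H2-Aa and H2-Eb1 and the transactivator Ciita were not called, with differences of -0.09 ± 0.07, -0.10 ± 0.07 and -0.05 ± 0.11 (SE; adjusted p = 0.38, 0.279 and 0.789). H2-Eb2, a less studied class II chain, read 287 and 303 in cDC1 and 1466 and 1605 in cDC2, 5.2-fold lower (adjusted p = 2.94e-09). Enzymes that prepare antigen for class II went the same way. Lgmn, the asparagine endopeptidase, was 3.57-fold lower with 567 and 550.3 against 2066 and 1925. Ctss, which trims the invariant chain, was 1.54-fold lower and the thiol reductase Ifi30 1.6-fold lower. The gene called higher was Marchf1 (1.54-fold), whose product removes class II from the surface.

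Lysosomal genes were split, with 9 of 23 tested higher and 10 lower. Those higher in cDC1 were led by Naaa and by Ppt1, a palmitoyl thioesterase, which read 6568 and 6612 against 1075 and 1018, or 6.3-fold (adjusted p = 2.55e-11). Cst3, the protease inhibitor cystatin C, was 1.97-fold higher, at 11921 and 11690.1 against 6087 and 5915. Most cathepsins on the list were lower: Ctsa was 3.24-fold lower, Ctsd 2.52-fold, Ctsc 2.03-fold and Ctsz 1.5-fold. Ctse, an aspartic cathepsin, was the one higher, 3.03-fold. Ctsb was not called (0.03 ± 0.09, SE; adjusted p = 0.853).

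Of 8 tested NADPH oxidase genes, 1 was called higher, Ncf1, and 4 lower; without any 1 of the 4 arrays the counts were 0 and 3. The largest difference was that of the catalytic subunit, Cybb, which read 103 and 68.2 in cDC1 and 1803 and 1730.2 in cDC2 (adjusted p = 9.75e-08). Its membrane partner Cyba was bright in both branches, at 3665 and 3785 against 4472 and 4381, or 1.19-fold lower, a call lost when any 1 of the 4 arrays was left out. The small GTPase Rac2 was 1.51-fold lower, and Siglecg, an inhibitory lectin kept in this list, 6.96-fold lower. Siglecg is not an oxidase subunit, yet it is 1 of the 8 counted as tested and 1 of the 4 counted as lower. Among Rab GTPases, which direct vesicle traffic, 12 of 28 tested were called higher and 3 lower. Rab7b read 2557 and 2393 against 109 and 129, and Rab32, of lysosome-related organelles, was 4.18-fold higher with 796 and 774 against 199 and 178. The early endosome genes Rab5a, Rab5b and Rab5c were not called (differences 0.04, -0.22 and -0.04; adjusted p = 0.817, 0.105 and 0.739).

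Toll-like receptors lay on both sides: 5 of 20 tested receptors and adaptors were called higher in cDC1 and 11 lower, with a median of -0.43. Tlr3 read 1147 and 992 in cDC1 and 44.1 and 38.3 in cDC2 (adjusted p = 5.98e-11). Tlr12, which senses profilin of parasites with TLR11, read 286 and 238 against 58.6 and 55.4, or 4.59-fold higher. Tlr7, the receptor for single-stranded RNA, went the other way with 14.6 and 12.7 against 464 and 444 (adjusted p = 1.75e-12). None of these overlapped, and the cDC1 values of Tlr7 were dim. Tlr1, a partner of TLR2 for lipopeptides, was 8.97-fold lower, Tlr2 2.51-fold and Tlr6 2.24-fold. Tlr8 was 5.25-fold lower but dim in cDC1. Tlr9, the receptor for CpG DNA, was nearer to level, at 460.5 and 474 against 715 and 728, or 1.54-fold lower (adjusted p = 6.59e-05). The adaptor Myd88 was 1.8-fold higher, whereas Ticam1, the adaptor of TLR3, was not called (-0.09 ± 0.11, SE; adjusted p = 0.569). Unc93b1, the chaperone of the endosomal receptors, was not called either (adjusted p = 0.111).

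Sensors of the cytosol were lower in cDC1 for 12 of 20 tested genes and higher for 1, Ifi205, with a median of -0.56. Ddx58, which encodes the RNA sensor RIG-I, read 38.5 and 40.2 in cDC1 and 468 and 428 in cDC2, 11.4-fold lower (adjusted p = 1.16e-08). Its relative Ifih1, which encodes MDA5, differed less, at 1.5-fold lower (adjusted p = 0.000281). Nlrp3, the inflammasome sensor, read 756 and 748 against 2310.3 and 2340.0, or 3.09-fold lower. No array of cDC1 reached the cDC2 values of these genes. Nod1 and Nod2, sensors of bacterial peptidoglycan, were 3.14- and 2.03-fold lower, and Casp1 1.94-fold. Aim2 and Cgas, sensors of DNA, were not called (adjusted p = 0.192 and 0.56).

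**Figure D4:**
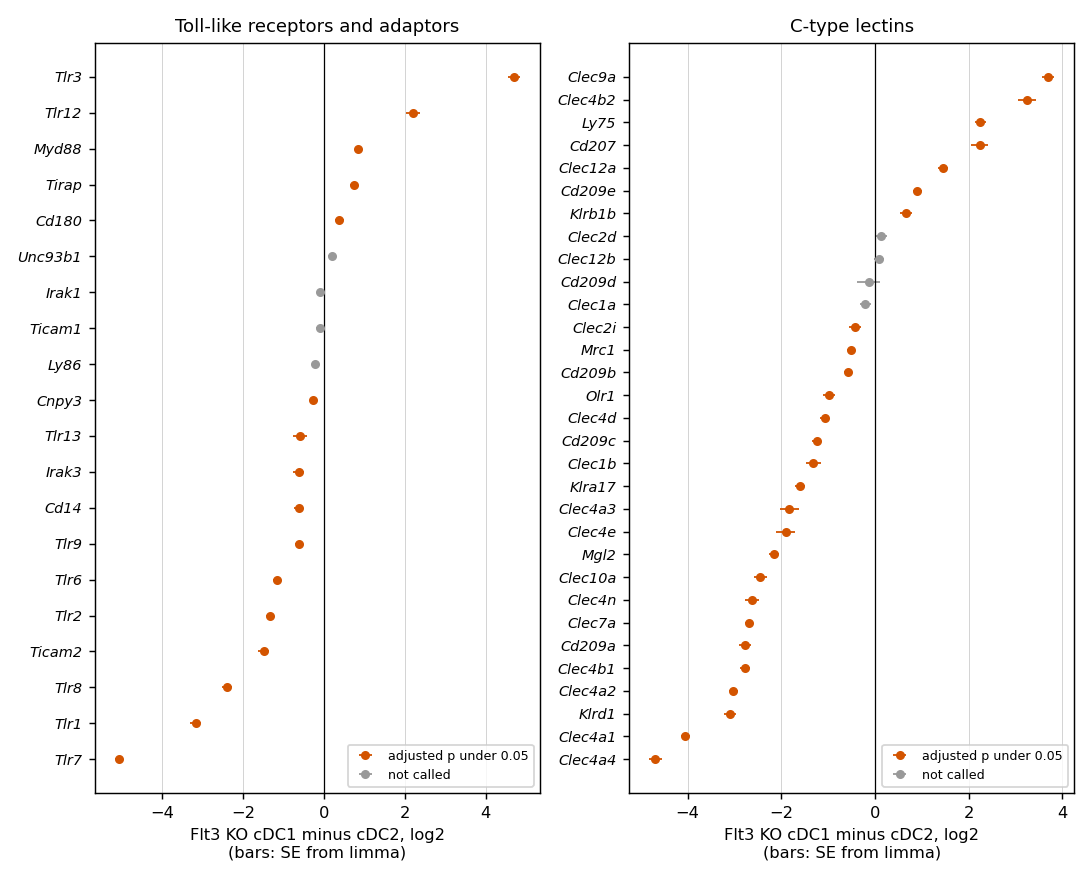
Difference in log2 intensity between Flt3 KO cDC1 and Flt3 KO cDC2, from limma, for the tested Toll-like receptors and adaptors (left) and C-type lectins (right); bars are the SE, orange points were called and grey points were not. Tlr3 (4.70) and Clec9a (3.70) lie highest, Tlr7 (-5.06) and Clec4a4 (-4.69) lowest.

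C-type lectins were lower in cDC1 for 20 of 31 tested genes and higher for 7, with a median of -1.08. With the lower 50% of genes left out before testing, fewer lectins were tested and 8 were called lower. The DCIR group on the lower side comprised Clec4a1, Clec4a2 (8.13-fold), Clec4a3 (3.55-fold) and Clec4a4; in all but Clec4a3 the cDC1 values were dim. Clec4a4, the lectin recognised by the antibody 33D1, read 13.1 and 9.93 in cDC1 and 295 and 293 in cDC2 (adjusted p = 3.4e-11). The DCIR-like Clec4b2 went against its neighbours, with 366 and 369.6 against 42.6 and 35.4, or 9.47-fold higher (adjusted p = 3.06e-08), while Clec4b1 was 6.87-fold lower and dim in cDC1. Probe sets of such close paralogs may share signal, and this was not tested. Clec7a, the receptor for fungal glucans known as Dectin-1, read 669 and 621 against 4103 and 4209, or 6.45-fold lower. Clec4n, which encodes Dectin-2, was 6.18-fold lower. The killer lectin gene Klrd1 read 187 and 160.1 against 1419 and 1542 and was 8.55-fold lower. On the higher side were Clec9a, Ly75 (4.75-fold), which encodes the uptake receptor DEC-205, and Cd207 (4.71-fold), which encodes langerin.

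Of 11 tested Fc receptor genes, 1 was called higher and 4 lower. Fcer1g, the signalling chain shared by several Fc receptors, read 447 and 436 in cDC1 and 2636 and 2722 in cDC2, 6.07-fold lower (adjusted p = 1.34e-10). Fcgr3 and Fcgr4, receptors for IgG, were 3.61- and 2.4-fold lower. The inhibitory receptor Fcgr2b was not called, at 466 and 441 against 452 and 429.5 (adjusted p = 0.769). Fcrla, an intracellular relative of Fc receptors best known from B cells, was the one higher in cDC1, with 365 and 362 against 45.1 and 45.1, or 8.05-fold (adjusted p = 1.11e-09).

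Interferon-stimulated genes were lower in cDC1 for 18 of 29 tested and higher for 5, with a median of -1.05. Rtp4, a chaperone of receptors, read 35.1 and 45.1 in cDC1 and 436 and 418 in cDC2, 10.7-fold lower (adjusted p = 9.99e-10). Ifitm3, which blocks virus entry, read 1958 and 1849 against 5272 and 4655, or 2.6-fold lower. Ifit1, which binds viral RNA, read 26.2 and 23.4 against 70.9 and 93.2, or 3.28-fold lower. The branches did not overlap in these. Oasl2 was 3.86-fold lower, Oas2 3.4-fold, Oas3 1.8-fold and Rsad2, which encodes viperin, 3.15-fold. Those called higher were Mx1 (2.02-fold), Trim30a (1.96-fold), Oasl1 (1.76-fold), Bst2 (1.34-fold) and Sp100 (1.22-fold). Without replicate 1 of Flt3 KO cDC2, 3 of the list were called higher. Irf7 and Irf9, factors that relay interferon signals, were not called (adjusted p = 0.85 and 0.805). Irf7 read 501 and 572 in cDC1 and 505 and 524 in cDC2. The type I interferon gene Ifnb1 read 30.8 and 32 in cDC1 and 30.8 and 31.2 in cDC2 and was not called (adjusted p = 0.885).

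Promoters of the interferon list are shown because 18 of its members were lower in cDC1 and such genes are known to share an element, the interferon response core GAAANNGAA. RefSeq promoters were found for 22 of the 29. In the 250 bases before the start 9 of the 22 genes held that core (40.9%), against 7.41% of the 11808 tested genes with a promoter. Another 5 held only an AP-1 or an ETS-IRF core. Positions are again those of the stretch printed, the core with 20 bases on either side. Ifit1 (plus strand) held an interferon response core within chr19:34640766-34640814, Oas3 (minus strand) within chr5:120777700-120777748 and Rsad2 (minus strand) within chr12:26456543-26456591. Bst2, which was higher in cDC1 and not lower, held one too, on the minus strand within chr8:71537568-71537616. So did Trim30a, also higher in cDC1. Of the others called higher, Oasl1 and Sp100 held no such core and Mx1 had no promoter sequence. Ifit1, Oas3 and Bst2 held further cores nearby, and 1 of each is shown. The core shown is in capitals.
Ifit1, lower in Flt3 KO cDC1: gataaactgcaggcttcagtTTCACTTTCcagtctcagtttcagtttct
Oas3, lower in Flt3 KO cDC1: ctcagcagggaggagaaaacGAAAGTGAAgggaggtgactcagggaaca
Rsad2, lower in Flt3 KO cDC1: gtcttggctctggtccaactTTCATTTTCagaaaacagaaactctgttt
Bst2, higher in Flt3 KO cDC1: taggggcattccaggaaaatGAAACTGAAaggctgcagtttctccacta
Over the 300-base promoters, the interferon response core was found in 12.7% of the 520 of genes more than 2-fold lower in Flt3 KO cDC1, 9.26% of the 443 of genes more than 2-fold higher and 7.07% of all 14823. These shares are a description of the sets.

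Chemokine receptors were lower in cDC1 for 8 of 17 tested genes and higher for 3. The higher ones were Xcr1, Cxcr3, with 549 and 539 in cDC1 against 73.2 and 68.7 in cDC2 (7.68-fold, adjusted p = 8.51e-11), and Ccr9, a gut-homing receptor (3.87-fold). Without replicate 2 of Flt3 KO cDC2, 5 were called higher, and with the lower 50% of genes left out, 5 lower. Cx3cr1, the fractalkine receptor, read 117 and 89.5 against 480.0 and 443, or 4.5-fold lower. Gpr183, the oxysterol receptor that places cDC2 in the spleen, was 3.24-fold lower with 507 and 559.8 against 1669 and 1785. Neither overlapped. Ccr6 was 3.24-fold lower, and Ccr7, which guides mature cells to T cell zones, 1.37-fold lower (adjusted p = 0.0009). Cxcr4 was not called, at 4842 and 4960.5 against 4538 and 4645.

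Of 16 tested chemokines, 5 were called higher and 5 lower. Cxcl9, a ligand of CXCR3, read 2065 and 1801 in cDC1 and 234 and 194 in cDC2, 9.06-fold higher (adjusted p = 1.78e-09). Ccl22, a ligand of CCR4, was 2.31-fold higher. Ccl3 read 1254 and 1280.1 against 2883 and 3746, or 2.59-fold lower, and Ccl9 was 2.65-fold lower. Without replicate 2 of Flt3 KO cDC2, 3 were called lower. Of 21 tested cytokines, 4 were called higher and 10 lower. Il12b, the shared chain of IL-12 and IL-23, read 3185 and 3066 against 587 and 688, or 4.92-fold higher (adjusted p = 7.87e-09), and Il15, which supports CD8 T and NK cells, was 3.78-fold higher. On the lower side Vegfa stood out at 117 and 119 against 1744 and 1637, or 14.3-fold (adjusted p = 3.92e-12). Il1rn, the IL-1 receptor antagonist, was 5.47-fold lower, Ltb, of the lymphotoxin system, 5.47-fold and Tnf 2.32-fold. Il23a and Il27 were not called (adjusted p = 0.63 and 0.935).

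Genes of costimulation and maturation were lower in cDC1 for 13 of 23 tested and higher for 5, with a median of -0.43. Without replicate 2 of Flt3 KO cDC1, or without replicate 2 of Flt3 KO cDC2, 3 were called higher. Cd274, which encodes the checkpoint ligand PD-L1, read 391 and 370.4 in cDC1 and 1009 and 1129 in cDC2, 2.81-fold lower (adjusted p = 2.18e-08), and Pdcd1lg2, which encodes PD-L2, was 2.71-fold lower. Cd80 was 1.34-fold lower (adjusted p = 0.00262), while its relative Cd86 was not called (4711 and 4653 against 4840.1 and 5293). Cd40 and Cd83 were not called (adjusted p = 0.603 and 0.841). Tnfrsf4, which encodes OX40, was 2.49-fold higher and Cd200 1.63-fold.

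Adhesion genes were split, with 13 of 33 tested called higher and 12 lower. Integrin alpha chains took opposite sides: Itga8 read 422 and 405 in cDC1 and 63.4 and 65.8 in cDC2, 6.4-fold higher (adjusted p = 5.2e-09), and Itga1 was 5.87-fold higher. Itgam was lower, as above, and Itga9 was 2.49-fold lower. Itgb3 was 4.26-fold lower and Itgb1 1.72-fold higher. Itga4 was level and bright, at 6639 and 6495 against 6429 and 6449. The adhesion molecules of the CADM family also took opposite sides, with Cadm3 at 43.9 and 42.4 against 395 and 412, or 9.35-fold lower, and Cadm1 higher.

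Of 14 tested semaphorins and plexins, 4 were called higher and 7 lower, with a median of -0.68. Plxnd1 read 161 and 195 in cDC1 and 868 and 876 in cDC2, 4.93-fold lower (adjusted p = 5.82e-10), and the secreted or membrane guidance cue Sema4d was 4.06-fold lower. Sema4a and Sema4f were 2.87- and 3.4-fold higher. Of 12 tested adhesion G protein-coupled receptors, 0 were called higher and 5 lower: Adgre4, Adgre1, Adgrg6 (6.68-fold), Adgrl3 (2.52-fold) and Adgrl1 (1.6-fold). Adgre5, which encodes CD97, was level at 4331 and 4289 against 4288 and 4414. Purinergic genes were split, 4 higher and 5 lower of 13 tested, with P2ry14 at 1362 and 1269 against 50.5 and 45.8 and Adk (2.26-fold) the highest, and P2ry13, a receptor for ADP, the lowest (2.55-fold lower). Of 16 tested matrix proteases and related genes, 4 were higher and 6 lower. Adam8 and Adam19, shedding proteases, were 3.23- and 3.18-fold higher, and Mmp14 was 2.64-fold lower.

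Genes for the clearance of apoptotic cells were lower in cDC1 for 12 of 25 tested and higher for 5. The higher ones with large differences were Cd36 and Clec9a. The others were Stab2 (1.39-fold), Timd4 (1.23-fold) and Itgav (1.18-fold). With quantile normalisation, no filter on dim genes, the replicate number alone as a block or the compared arrays alone, the count higher was 3. Timd4 and Itgav lost their calls under each of those settings. Without replicate 1 or 2 of Flt3 KO cDC1 or replicate 1 of Flt3 KO cDC2 the count higher was 3, 2 and 3, and Timd4 and Itgav lost their calls in each of these. Lrp1, a receptor for calreticulin and many other ligands, read 101 and 94.3 in cDC1 and 559.9 and 584 in cDC2, 5.86-fold lower (adjusted p = 1.48e-10). Axl, a receptor for the bridging protein GAS6, was 3.61-fold lower with 56.4 and 56.1 against 234 and 176. The C1q chains, which opsonise dying cells, were lower: C1qa read 69.4 and 69.7 against 363 and 279.8, or 4.58-fold (adjusted p = 8.45e-08), C1qb was 4.53-fold lower and C1qc 2.02-fold.

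Genes of oxidative phosphorylation differed in small steps. Of 35 tested such genes, 20 were called higher in cDC1 and 0 lower, with a median of 0.28, and without replicate 2 of Flt3 KO cDC2 the count was 11. Cycs, which encodes cytochrome c, read 2121 and 1847 in cDC1 and 1316 and 1049 in cDC2, 1.69-fold higher (adjusted p = 0.000345), the largest of the list. Of 20 tested glycolysis and pentose phosphate genes, 11 were higher and 4 lower, with a median of 0.49. Pgk1 read 876 and 882 against 400.3 and 403, or 2.19-fold higher (adjusted p = 4.28e-08). Hk3, a hexokinase of myeloid cells, was 3.16-fold higher and Pfkp 2.27-fold. The glucose transporters went the other way. Slc2a3 read 215 and 238 against 1457 and 1511, or 6.56-fold lower (adjusted p = 7.13e-11), and Slc2a1 was 3.43-fold lower. With the lower 50% of genes left out, 2 of the list were lower. Of 21 tested genes of cholesterol synthesis and control, 3 were higher and 4 lower, a share near that of all genes; without replicate 2 of Flt3 KO cDC2, 2 were lower.

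Of 33 tested cell cycle genes, 11 were called higher in cDC1 and 3 lower, with a median of 0.15. The count higher was 2 without replicate 1 of Flt3 KO cDC1, 6 without its replicate 2 and 2 without replicate 2 of Flt3 KO cDC2. Mcm6, of the replicative helicase, read 372 and 367 against 248 and 204 (1.64-fold, adjusted p = 0.000408). The proliferation marker Mki67 was not called, at 524 and 518 against 581 and 471, and its groups overlapped. Of 15 tested BCL2 family genes, 5 were higher and 4 lower. Bcl2l14 read 484 and 452 against 109 and 86.6 and was 4.82-fold higher, Bcl2l1, which encodes the survival protein BCL-XL, 2.6-fold higher, and Pmaip1, the death-promoting NOXA, 1.54-fold lower. Of 27 tested immediate early and heat shock genes, which respond to cell handling as well as to signals, 5 were higher and 12 lower; without replicate 2 of Flt3 KO cDC1, 3 were higher. Jun, a partner of BATF factors, read 1171 and 1164 against 3448 and 3738, or 3.08-fold lower (adjusted p = 2.04e-08), while Fos and Egr1 were not called (adjusted p = 0.507 and 0.399).

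Markers of other cell types were set beside these results. T cell markers gave 0 calls among 9 tested, with Cd3e at 71.3 and 65.1 in cDC1 and 69.4 and 68.3 in cDC2, and erythroid markers 0 among 4. Of 11 tested B cell markers 2 were higher, Fcrla and Ms4a1, and 5 lower, with Cd22 at 139 and 153 against 539 and 460.1 and the defining marker Pax5 not called (50.2 and 50.1 against 49.5 and 52.3). Of 11 plasmacytoid dendritic cell markers 4 were higher and 5 lower, with Siglech at 65.1 and 62.9 against 118 and 129; with the lower 50% of genes left out, 2 were lower. NK cell markers gave 1 higher of 4, neutrophil markers 2 lower of 6, platelet markers 1 lower of 4, basophil and mast cell markers 1 lower of 3, stromal and endothelial markers 2 lower of 11 and plasma cell markers 1 in each direction of 6. These small counts moved with single arrays. Stromal and endothelial markers gave 1 lower without replicate 2 of Flt3 KO cDC1 and 0 without any 1 of the other 3 arrays. Neutrophil markers gave 1 lower without any 1 array except replicate 1 of Flt3 KO cDC1, and the basophil and mast cell marker Kit lost its call without replicate 2 of Flt3 KO cDC2. Without replicate 1 of Flt3 KO cDC2, plasma cell markers gave 2 higher and NK cell markers 1 lower. Macrophage markers gave 3 higher and 7 lower of 16, and their summed intensity over the 18 with a value was 2261 to 2382 in the cDC1 arrays and 3911 to 4137 in the cDC2 arrays. Among the lower ones were Adgre1, Cd68 (865 and 909 against 1515 and 1657) and the C1q chains. Hmox1 was among the higher ones, with the highest log2 difference of the list, 1.405. Marco, Siglec1 and Cd163, which mark splenic macrophages, were not called (adjusted p = 0.424, 0.809 and 0.125). Monocyte markers gave 3 higher and 5 lower of 10, with Ms4a4c at 56.8 and 68.5 against 807 and 763 and Treml4 at 1987 and 1853 against 388 and 279, and summed to 14609 to 14983 in cDC1 and 13784 to 14122 in cDC2 over 12 genes. Marco read 53.6 and 60.8 in cDC1 and 52.7 and 53.5 in cDC2. Cd163 read 25.5 and 22.8 in cDC1 and 26 and 29.9 in cDC2, near the dim level, so its lack of a call says little. The part of other cells in the results was not tested.

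The Flt3 KO difference was then set beside the WT difference, which asks whether the branches stay apart to the same degree without the receptor. These contrasts share no arrays. In WT, 39.4% of tested genes were called between cDC1 and cDC2. Of the 915 genes called and more than 2-fold apart in Flt3 KO, 915 were called in the same direction in WT. Counting only differences over 2-fold in both, 810 were shared, which is 88.5% of the Flt3 KO genes and 83.6% of the 969 WT genes. The test of the difference itself, that in Flt3 KO less that in WT, called 0 genes with limma (0%). Of the 14953 tested genes, 1342 had an unadjusted p under 0.05 in that test, and the smallest adjusted p was 0.106. A count of 0 does not show that no gene changed. The count was 5 with a trended and robust prior and 5 with an offset added to the intensities, and it moved with single arrays: without replicate 2 of WT cDC1, 170 genes were called, which leaves that group as replicate 1 alone, the array whose lower quartile of 25.7 stood above the others. Without replicate 1 of WT cDC1 the count was 0, and without replicate 2 of Flt3 KO cDC1, 1, Gpr141. What moved these counts was not tested. For 858 of the 915 genes the 95% interval of the difference lay within 1 on the log2 scale in either direction. For 57 it reached beyond, so a change of 2-fold is within reach of the interval there. The median size of the difference over the 915 was 0.17. The median SE was 0.13, which sets how small a change could be seen.

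**Figure D5:**
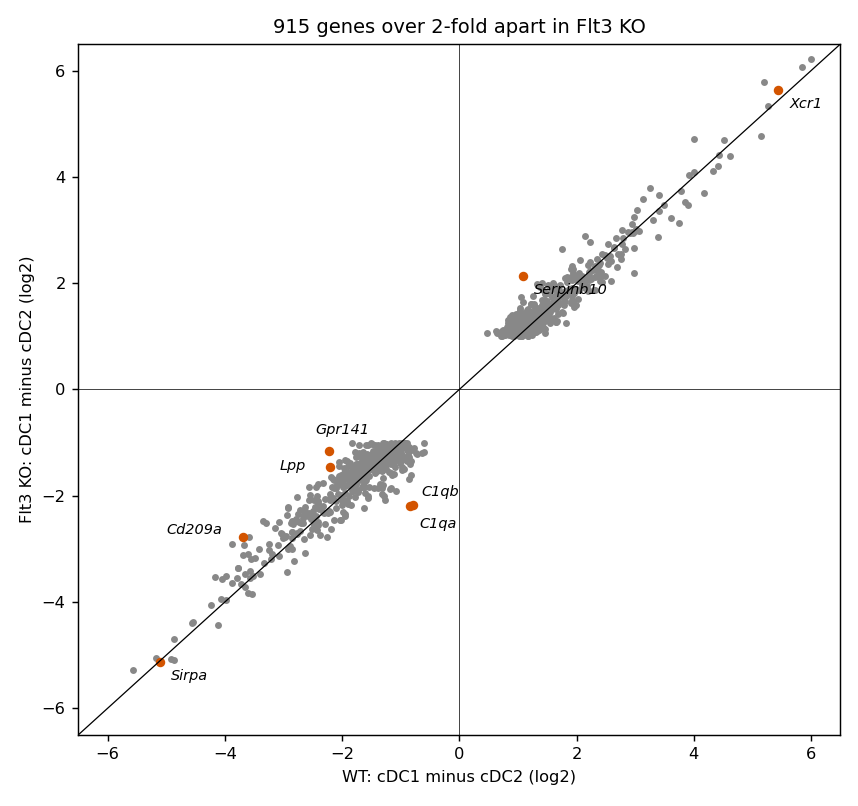
Difference between cDC1 and cDC2 in log2 intensity in WT (x axis) and in Flt3 KO (y axis) for the 915 genes called and more than 2-fold apart in Flt3 KO; the line marks equal differences and 8 named genes are orange. The points lie along the line, with Serpinb10 above it and C1qa and C1qb below it.

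The 5 genes with the smallest p for this difference did not pass the threshold (adjusted p = 0.106 to 0.109) and are given by their values. Gpr141, an orphan receptor, read 109 and 86.9 in Flt3 KO cDC1 and 225 and 209 in Flt3 KO cDC2, against 54.4 and 59.4 in WT cDC1 and 263 and 266 in WT cDC2. The Flt3 KO cDC1 arrays lay above the WT cDC1 arrays, and the difference between branches was -1.15 in Flt3 KO and -2.22 in WT (95% interval of the change 0.75 to 1.38). Lyz2 read 1166 and 1172 in Flt3 KO cDC1 and 1297 and 1129 in Flt3 KO cDC2, against 1211 and 1288 in WT cDC1 and 716 and 735 in WT cDC2, so the Flt3 KO cDC2 arrays were the ones apart from their WT counterparts (change -0.83 ± 0.13, SE). C1qa read 69.4 and 69.7 in Flt3 KO cDC1 and 363 and 279.8 in Flt3 KO cDC2, against 84 and 78.8 in WT cDC1 and 135 and 157 in WT cDC2. Of these 4 groups it was highest in Flt3 KO cDC2, and the change was -1.36 ± 0.21 (SE). Serpinb10, a protease inhibitor gene, read 355 and 390.2 in Flt3 KO cDC1 and 83.8 and 85.8 in Flt3 KO cDC2, against 217 and 273 in WT cDC1 and 122 and 107 in WT cDC2, with a change of 1.05 ± 0.16 (SE). Lpp, a focal adhesion gene, read 171 and 164 in Flt3 KO cDC1 and 444 and 475 in Flt3 KO cDC2, against 103 and 116 in WT cDC1 and 498 and 513 in WT cDC2, with a change of 0.76 ± 0.12 (SE). Among the 915 genes, 4 had a change of more than 1 on the log2 scale: Gpr141, Serpinb10, C1qa and C1qb (-1.38 ± 0.26, SE; adjusted p = 0.199).

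Identity genes were then read the same way. The median change from WT was 0.007 over the 29 tested cDC1 identity genes and 0.15 over the 30 tested cDC2 identity genes. The genes named next are single members and do not stand for their lists. Irf4 and Irf8 both had smaller differences in Flt3 KO than in WT, at -2.52 against -3.31 for Irf4 and 2.87 against 3.38 for Irf8, and neither change passed (adjusted p = 0.288 and 0.313). Cd209a went from -3.70 in WT to -2.78 in Flt3 KO, a change with a 95% interval of 0.53 to 1.31 (adjusted p = 0.269). Itgae went from 3.75 to 3.14 and Tlr12 from 2.99 to 2.20 (adjusted p = 0.458 and 0.469). For Xcr1 the change was 0.19 ± 0.15 (SE; adjusted p = 0.698). For Sirpa it was -0.02 ± 0.13 (SE; adjusted p = 0.964). A p above the threshold does not show that these differences are equal.

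Loss of the ligand gives the other counterpart. In Flt3L KO, 34.8% of tested genes were called between the branches, and of the 915 genes 910 were called in the same direction as in Flt3 KO. The exceptions were Cxcl2, Hmox1, Mir18, Serpinb1a and Xlr. Differences over 2-fold in both genotypes were shared by 751 genes, 82.1% of the Flt3 KO genes and 84% of the 894 Flt3L KO genes. The test of the Flt3 KO difference less the Flt3L KO difference called 17 genes (0.114%), 11 with a positive and 6 with a negative change. Leaving out 1 of the 8 arrays moved this count to between 2 (without replicate 1 of Flt3 KO cDC1) and 29 (without replicate 2 of Flt3L KO cDC2). It was 3 and 8 without replicates 1 and 2 of Flt3L KO cDC1, 4 without replicate 1 of Flt3L KO cDC2, 5 without replicate 2 of either Flt3 KO group and 7 without replicate 1 of Flt3 KO cDC2. Cd36 was called in 17 of 17 alternative settings, Abca9 and Fcrla in 16, Cxcl2 in 15 and Cd101 in 10. The other 12 were called in 3 to 7 of the 17.

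Cd36 had the smallest p of these. It read 1194 and 1160.0 in Flt3 KO cDC1 and 72.9 and 63.2 in Flt3 KO cDC2, against 712 and 808 in Flt3L KO cDC1 and 143 and 124 in Flt3L KO cDC2. The branches were closer without the ligand from both sides, as Flt3L KO cDC1 was lower and Flt3L KO cDC2 higher, and the change was 1.61 ± 0.15 (SE; adjusted p = 0.00129). Abca9, a lipid transporter gene, read 28 and 24.1 in Flt3 KO cDC1 and 169 and 177 in Flt3 KO cDC2, against 27.6 and 29.6 in Flt3L KO cDC1 and 77.4 and 82.1 in Flt3L KO cDC2. The change was -1.26 ± 0.13 (SE; adjusted p = 0.00363), and the cDC2 arrays were the ones apart. Fcrla read 136 and 175 in Flt3L KO cDC1 and 61.7 and 47.4 in Flt3L KO cDC2, with a change of 1.50 ± 0.18 (SE; adjusted p = 0.00724). All its Flt3L KO cDC1 values lay below the 365 and 362 of Flt3 KO cDC1. Cxcl2, a chemokine for neutrophils, changed sign: it read 233 and 227 against 102 and 106 in Flt3 KO and 94.4 and 110.4 against 126 and 142 in Flt3L KO (adjusted p = 0.00724). Hmox1, the haem-degrading enzyme, was 2.65-fold higher in Flt3 KO cDC1, with 389 and 274 against 121 and 126, and level in Flt3L KO, with 171 and 238 against 189 and 215 (adjusted p of the change = 0.0467, called in 7 of 17 settings). Mertk, a receptor for apoptotic cells, read 28.9 and 27.3 in Flt3 KO cDC1 and 36.9 and 33.3 in Flt3 KO cDC2, against 29.6 and 27.6 in Flt3L KO cDC1 and 60.6 and 57.4 in Flt3L KO cDC2, which stood above the rest (adjusted p = 0.0467, called in 3 of 17 settings). The macrophage markers summed to 4696 to 5042 in the Flt3L KO cDC2 arrays, above the 3911 to 4137 of Flt3 KO cDC2. In cDC1 the sums went the other way, at 2041 to 2154 in Flt3L KO and 2261 to 2382 in Flt3 KO. The list itself holds 2 of the 17 called genes, so the sums are not independent of them. The part of macrophage markers in these changes was not tested.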

How the data were processed

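Expression was measured on 12 GeneChip arrays, 2 for each pairing of branch and genotype, and 4 of them form the comparison. The deposited values are linear intensities, as judged from their range. Their summarisation and normalisation by the submitters are not given in the sources used here, and a compressed low end would understate folds of dim genes. Of 30177 probe sets, 21789 had 1 gene symbol, 1621 several and 6767 none, by the platform annotation. Those with several or none were left out, which left 19938 genes. The members and gene lists were chosen with earlier results of these data known.

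Log2 intensities were fitted with limma 3.58.1 in R 4.3.3, with 1 mean per group over all 12 arrays and 6 residual degrees of freedom. The lowest 25% of genes by mean were left out, keeping Flt3 and Flt3l. P-values were adjusted by Benjamini-Hochberg over 14953 genes, and an adjusted p under 0.05 was called. Differences between genotypes were contrasts of the same fit. Genes with several probe sets (999) used the one with the highest mean. The script was tested on simulated data. Named genes are Flt3 and Flt3l, the 12 largest called rises and falls without overlap (leaving out predicted, clone-named, small RNA and receptor segment genes), identity markers, up to 6 called members of a list in each direction, and the genes with the smallest p in each test between genotypes (8 or, with under 5 called, 5). Others, chiefly members that were not called, were chosen after their values were seen. The interferon promoter windows were added after the values were seen. Alternatives were quantile normalisation, other filters, prior, offset and probe set rules, replicate blocks and leaving out single arrays.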

Additional observations from a re-analysis of the deposited data

Results flagged for a closer look

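The test of the difference between genotypes called 17 genes whose gap between cDC1 and cDC2 in Flt3 KO was not the gap in Flt3L KO (limma, 2 arrays per group), and the 8 with the smallest p are given here. The change, in log2 units as Flt3 KO less Flt3L KO, was 1.61 for Cd36, 1.5 for Fcrla, 1.54 for Cxcl2, 1.82 for Clec4b2 and 1.15 for Adgrf5. It was -1.26 for Abca9, -0.89 for Cd101 and -0.72 for Tbc1d30. The gap in WT was 4.32 for Cd36, 2.77 for Fcrla, 0.95 for Cxcl2, 2.98 for Clec4b2 and 1.68 for Adgrf5. For Abca9 it was -2.55, for Cd101 -2.04 and for Tbc1d30 -1.25. In each of the 8 the WT gap lay nearer to the Flt3 KO gap than to the Flt3L KO gap. Clec4b2, a lectin, read 366 and 369.6 in Flt3 KO cDC1 and 63.1 and 104 in Flt3L KO cDC1, with cDC2 values of 42.6 and 35.4 in Flt3 KO and 32.7 and 27.7 in Flt3L KO (adjusted p = 0.0448). Adgrf5, an adhesion receptor, had dim cDC2 values in both genotypes (19.8 and 21 in Flt3 KO, 18.9 and 20.4 in Flt3L KO). Cd101, an inhibitory receptor, differed in cDC2, at 123 and 117 in Flt3 KO and 78.7 and 81.7 in Flt3L KO. Of 17 alternative settings the call was kept in 17 for Cd36, 16 for Abca9 and Fcrla, 15 for Cxcl2, 10 for Cd101, 7 for Clec4b2 and Tbc1d30 and 4 for Adgrf5. What these changes come from was not tested.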

How the results depend on the processing

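The count of genes called between Flt3 KO cDC1 and Flt3 KO cDC2 was 5305 as reported. It was 5005 to 5508 under the settings that left out no single array. Leaving out any 1 array of these groups lowered it. Leaving out replicate 1 of WT cDC1, an array outside this comparison, raised it. Only the pooled spread changed in that setting, as probe sets and the filter were still taken over all 12 arrays. That setting was not among the planned ones, and no other array outside the comparison was left out for this count of genes. Those called and over 2-fold numbered 687 with an offset added to the intensities and 912 to 950 with 1 array left out. For the difference from WT, 0 genes as reported, the count was 5 with a trended and robust prior and 5 with the offset (C1qa, Gpr141, Lpp, Lyz2 and Serpinb10 in both), and 0 to 170 with 1 array left out. For the difference from Flt3L KO, 17 as reported, it was 5 with quantile normalisation, 7 with no filter on dim genes, 42 with the trended prior, 37 with the offset, 6 with the compared arrays alone, 8 with the replicate number alone as a block, and 2 to 29 with 1 array left out. The cause was not tested. The Flt3 difference, Flt3 KO cDC1 minus Flt3 KO cDC2, was 0.01 as reported, -0.024 with quantile normalisation and -0.031 to 0.052 with 1 array left out. The Lyz2 difference, Flt3 KO cDC1 minus Flt3 KO cDC2, was -0.15 to 0.050 with 1 array left out. Neither was called as reported. Samples share only a replicate number: deviations of same-numbered arrays correlated at 0.159 in WT, 0.0885 in Flt3 KO and 0.146 in Flt3L KO. A block for genotype and number gave 5383 calls between the branches, 0 against WT and 12 against Flt3L KO (8 of the 17), and the number alone gave 5120 between the branches. Of 314 named called genes, 0 to 25 lost the call under a setting and 0 reversed. Dim genes limit what the arrays can resolve.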
